A study of Mus musculus with 12 samples.

Results

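The subject here is the binding sites recorded for STAT6 early in Th2 differentiation, in CD4 T cells from mice with and without NLRP3. The members are the peaks of the wild-type and the knockout STAT6 lists on chromosomes 1 to 19, X and Y that share no base with a peak of the nonspecific Ig or input library of the same genotype. The wild-type list gives 2871 and the knockout list 169 such control-free peaks, 3040 in all, out of 3463 deposited STAT6 peaks and 99986 peaks in the 12 lists of the series. They were sorted into wild-type only, knockout only and shared peaks, where a shared peak overlaps a control-free STAT6 peak of the other genotype by at least 1 bp.

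STAT6 is the transcription factor that the IL-4 receptor switches on: receptor-bound Janus kinases phosphorylate it, it pairs with a second copy, enters the nucleus and binds DNA. In CD4 T cells it drives the Th2 programme, including the master regulator GATA3 and the cytokine genes of that lineage. NLRP3 is a cytosolic sensor best known for assembling inflammasomes, and the series asks how it meets transcription factors on chromatin in these cells.

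All libraries came from naive CD4 T cells of spleen and lymph nodes of C57/Bl6j mice, 7 weeks old, cultured on plates coated with CD3 and CD28 antibodies, with 10 ng/ml IL-4 and an antibody blocking IFNgamma, for a few hours whose number is not stated. The wild-type and NLRP3 KO groups differ, per the labels, in that genotype alone. How many mice were used or pooled is not given in the sources used here. Chromatin immunoprecipitation and sequencing (ChIP-seq) was done on 300000 cells with antibodies to STAT6, NLRP3, IRF4 or BATF, a nonspecific Ig, or no antibody (input). Each group is 1 library, so every comparison below is a description with no test between genotypes. Intervals are exact Clopper-Pearson 95% intervals and cover the counting of peaks only. The read depth is unknown, since the lists give positions and the caller's score but no read counts.

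The series as a whole sets some limits. With the antibody to NLRP3 the wild-type list held 611 peaks and the list labelled NLRP3 KO 661, so the lists do not show the loss of the protein. The knockout input list was far longer than the wild-type one, at 30165 against 454 peaks, and the other lists apart from knockout BATF held between 361 and 3102 peaks. The lists hold no expression values, so the labelled cell type was not checked against marker genes.

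The control filter acted unevenly on the STAT6 lists. It removed 99 of 2970 wild-type peaks, or 3.33%, and 89 of 258 knockout peaks, or 34.5%. The numbers removed were close while the lists differed in length. Removed peaks scored higher than kept ones: the median score of those removed was 172 (wild-type) and 151 (knockout), against 58.65 and 64.3 among the peaks kept. The Ig list alone accounted for 79 of the wild-type and 66 of the knockout removals, and input alone for 2 and 8. At the edge of this rule, 2 removed peaks in each genotype overlapped a control peak by under 50 bp. The nearest kept peak lay 85 bp (wild-type) and 34 bp (knockout) from a control peak, and 8 and 12 kept peaks lay within 1000 bp of one.

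STAT6 peaks recurred between genotypes at very few places. Only 14 control-free wild-type peaks met a control-free knockout peak, which leaves 2857 wild-type only and 155 knockout only peaks. The shared peaks were 0.488% (0.267 to 0.817) of the wild-type list and 8.28% (4.60 to 13.5) of the knockout list. The other antibodies, filtered in the same way, give the background. For NLRP3, 1.79% of wild-type and 1.45% of knockout peaks had a counterpart, and for IRF4 the shares were 3.43% and 2.71%. For BATF they were 8.55% of wild-type and 0.0864% of knockout peaks, the latter out of 60161. The lists searched differ in length: the STAT6 knockout share was measured against 2871 wild-type peaks and the wild-type share against 169 knockout peaks. The count of 14 rests on the control filter, since with no control peaks removed 108 of 258 knockout peaks had a wild-type counterpart, or 41.9% (35.8 to 48.1).

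**Figure D1:**
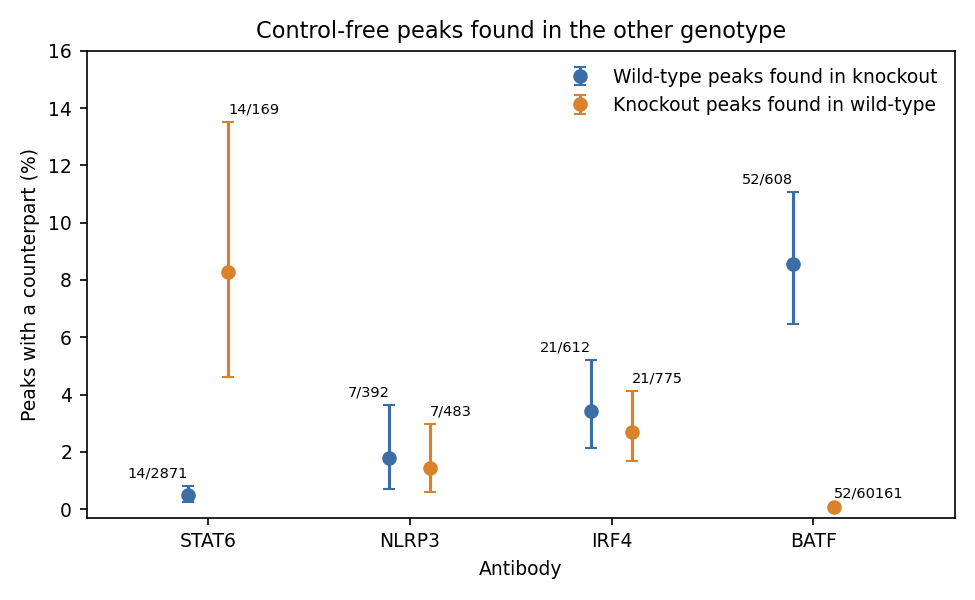
Share of control-free peaks, in percent, that overlap a control-free peak of the same antibody in the other genotype, for wild-type peaks (blue) and knockout peaks (orange), with exact 95% intervals and the counts printed beside each point. For STAT6, 14 of 2871 wild-type and 14 of 169 knockout peaks have a counterpart, and for IRF4 and NLRP3 the pair of shares lie close together.

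With the lists of each antibody cut to equal length, the STAT6 share was close to that of IRF4, whose lists were longer. The 169 highest-scored wild-type peaks, as many as the knockout list holds, met 5 knockout peaks, or 2.96% (0.967 to 6.77). The same comparison at the length of the shorter list found a counterpart for 2.94% (1.75 to 4.61) of IRF4 peaks, 1.97% (1.02 to 3.42) of those of BATF and 1.53% (0.564 to 3.30) of those of NLRP3. These lengths differed, at 169 peaks for STAT6, 392 for NLRP3, 608 for BATF and 612 for IRF4. A longer list gives more places to meet, so the 4 shares are not ranked, and all 4 intervals overlapped. For STAT6 the cut left wild-type peaks scored at least 88.34 beside knockout peaks down to 50.41.

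In the wild-type list recurrence was higher at high scores, and the score is the caller's own measure of a peak within its list. Of the 1558 wild-type peaks scored 50 to under 60, 1 was shared, or 0.0642% (0.00163 to 0.357). Among the 55 wild-type peaks scored 100 or more, 4 were shared, or 7.27% (2.02 to 17.6), and these intervals did not overlap. The bands between were alike, with 5 of 724 at 60 to under 75, or 0.691% (0.225 to 1.60), and 4 of 534 at 75 to under 100, or 0.749% (0.204 to 1.91). Among knockout peaks 2 of 54 were shared at 50 to under 60, or 3.70% (0.452 to 12.7), and 3 of 67 at 60 to under 75, or 4.48% (0.933 to 12.5). The knockout shares were 6 of 31 at 75 to under 100, or 19.4% (7.45 to 37.5), and 3 of 17 at 100 or more, or 17.6% (3.80 to 43.4), all with overlapping intervals. Ranked within their own list, where 100 would be the top score, the shared peaks had a median percentile of 86.7 in the wild-type and 76.5 in the knockout list. The wild-type only peaks had a median of 45.8 and the knockout only peaks of 48.2. In the other wild-type lists the medians of shared and unshared peaks were 81.0 and 47.96 for NLRP3, 91.7 and 48.9 for IRF4, and 80.3 and 50 for BATF. In the knockout lists they were 63.0 and 53.6 for NLRP3, 93.5 and 49.3 for IRF4, and 45.9 for both kinds of BATF peak.

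Shared sites were chosen for overlapping, which bounds how far apart their centres can be. The overlap was between 13 and 334 bp with a median of 100 bp, and the centres were a median of 26.75 bp apart. In 11 of 14 the centres were less than 50 bp apart, and the largest offset was 128.5 bp. Above the 75th percentile of scores lay 9 of the 14 in the wild-type list, 8 in the knockout list and 5 in both. Across the 14 sites the ranks in the lists had a Spearman rho of 0.138, given as a description over sites that share the same pair of libraries.

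In the deposited positions, most probably of build mm9, the best-ranked shared site was chr9:95326343-95326430, 88 bp wide with a score of 159 in wild-type cells and 103 bp wide with a score of 129 in knockout cells. Their centres were 4.5 bp apart. Knockout IRF4 had a peak of 74.9 at the site and wild-type NLRP3 a peak of 103. This site was thus near the top of both STAT6 lists, at the 99.9th and 94.7th percentile.

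At chr8:73956979-73957078 the wild-type STAT6 score was 112 and the knockout score 101. The other peaks there all came from knockout libraries, 190.1 with IRF4, 79.7 with NLRP3 and 56.7 with BATF. The site at chr18:82390418-82390487 was narrow in wild-type cells, 70 bp with a score of 82.6, and broad in knockout cells, 398 bp with a score of 153. It carried IRF4 in both genotypes, at 135 and 86.95, with wild-type BATF at 73.5 and NLRP3 at 76.5. IRF4 and BATF, an interferon regulatory factor and an AP-1 family protein, are known to bind composite elements as partners in T cells.

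The next 3 shared sites had mean percentiles from 86.0 to 86.99. At chr1:197105423-197105504 the wild-type STAT6 score was 106 and the knockout score 79.8, beside wild-type NLRP3 at 114 and IRF4 at 88.25. At chr19:45724542-45724627 the scores were 76.8 and 97.1, with wild-type NLRP3 at 154, wild-type IRF4 at 81.3 and knockout IRF4 at 51.9. At chr18:11288570-11288725 they were 99.8 and 77.2, and the only other peak was wild-type NLRP3 at 50.7. Scores belong to their own list, so none of these pairs measures a gain or loss of binding.

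The remaining 8 shared sites had mean percentiles from 34.6 to 72.2. The highest of them by wild-type score, chr17:63086877-63086970, scored 141 (wild-type) and 63.75 (knockout). It met IRF4 in both genotypes, at 130.3 and 113, and BATF in both, at 79.7 and 56.7. The widest shared site, chr13:74667694-74668033, was 340 bp (wild-type) and 460 bp (knockout) wide. The site at chrX:4137782-4137908, with scores of 65.9 and 50.9, was the only one of the 14 found in none of the 10 lists of other preparations.

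Sites shared between genotypes were mostly sites of other antibodies as well. Of the 14, 13 met at least 1 of the 6 lists of NLRP3, IRF4 and BATF, which is 92.9% (66.1 to 99.8), against 104 of 2857 wild-type only peaks, or 3.64% (2.98 to 4.39). In the whole knockout STAT6 list, shared peaks included, 64 of 169 met at least 1 of them, or 37.9% (30.5 to 45.6). Wild-type NLRP3 met 9 of the 14, wild-type IRF4 8, knockout IRF4 8 and knockout NLRP3 3, counted on the wild-type peak. The other antibodies differed among themselves. Among peaks shared between genotypes, 6 of 7 for NLRP3, 18 of 21 for IRF4 and 15 of 52 for BATF, or 28.8% (17.1 to 43.1), met a list of another antibody. For their wild-type only peaks the shares were 19.5%, 12.7% and 5.40%. Unshared STAT6 peaks of high score also met other lists often. At scores of 100 or more, 13 of 14 knockout only peaks met at least 1 of the 10 lists of other preparations, Ig and input included. The same held for 19 of 51 wild-type only peaks, or 37.3% (24.1 to 51.9).

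Wild-type only peaks were narrow and mostly low in score. Of the 2857, 1557 or 54.5% scored under 60, and 51 or 1.79% scored at least 100. The scores were also coarse. In the wild-type list the 12 commonest score values held 1731 of 2871 peaks, or 60.3%, led by 58.65 with 415 peaks, 53.75 with 248 and 70.65 with 233. In the knockout STAT6 list the commonest score, 63.75, held 11 of 169 peaks, or 6.51%. Among other control-free lists it held 88 of 483 knockout NLRP3, 76 of 608 wild-type BATF and 52967 of 60161 knockout BATF peaks. It held 13 of 392 wild-type NLRP3, 26 of 612 wild-type IRF4 and 47 of 775 knockout IRF4 peaks. Rank differences within the wild-type STAT6 list are therefore often ties.

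The knockout only peaks were wider. The median width of wild-type only peaks was 106 bp (quartiles 82 and 142) and that of knockout only peaks 144 bp (quartiles 111.5 and 169.5). Under 80 bp lay 22.4% of wild-type only and 4.52% of knockout only peaks, and over 200 bp lay 1.61% and 14.8%. The widths of other control-free lists had medians of 149 bp for wild-type NLRP3, 150 bp for wild-type IRF4, 129 bp for knockout IRF4, 101 bp for knockout NLRP3 and 93 bp for wild-type BATF. Wild-type peaks became narrower towards higher scores, from a median of 132 bp at scores of 50 to under 60 to 81 bp at 100 or more. The corresponding knockout medians were 163 and 124 bp. Among the 169 highest-scored wild-type peaks the median was 74 bp, and 72.8% (65.4 to 79.3) were under 80 bp against 4.73% (2.07 to 9.11) of the knockout list. This sets wild-type peaks scored at least 88.34 beside knockout peaks down to 50.41, so it is not matched for score. At scores of 75 to under 100 the medians were 79.5 bp (wild-type) and 119 bp (knockout).

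**Figure D2:**
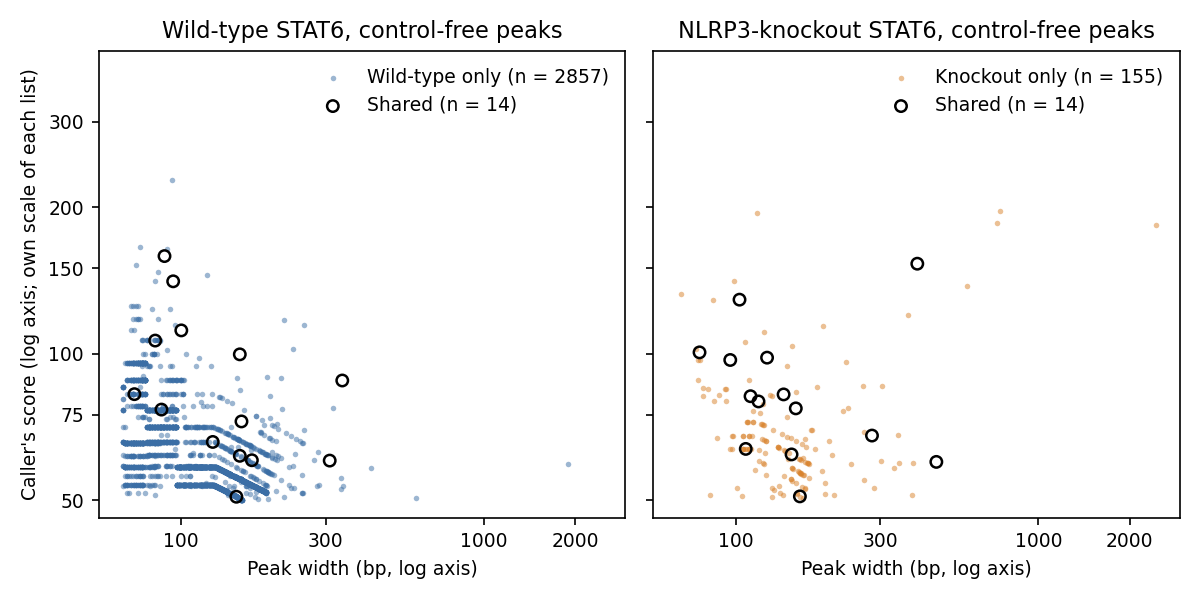
Each point is 1 control-free STAT6 peak, with its width in bp and its score on log axes, in wild-type (left) and knockout cells (right), and open circles mark the 14 shared sites. Many wild-type points fall on horizontal lines of equal score, where 415 peaks share the value 58.65, and the knockout panel reaches a width of 2440 bp at a score of 184.

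The 5 highest-scored wild-type only peaks had no knockout STAT6 peak, kept or removed, closer than 824158 bp, and other antibodies had peaks at each of them. The peak at chr9:23522173-23522265, 93 bp wide with a score of 228, met wild-type IRF4 at 134 and BATF at 111, and knockout NLRP3 at 234 and IRF4 at 152. It had the closest deposited knockout STAT6 peak of the 5. The peak at chr3:16690244-16690316 scored 166 and met wild-type IRF4 at 97.9 alone. Knockout lists held a peak at 4 of these 5 sites.

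The other three each met knockout lists. At chr18:43073567-43073656 STAT6 scored 164, with knockout IRF4 at 101 and knockout BATF at 56.7. At chr14:85067668-85067738 it scored 153, with knockout BATF at 78.55 and knockout IRF4 at 59.45. At chr13:60777955-60778038 it scored 148, with knockout NLRP3 at 99.2. The nearest deposited knockout STAT6 peaks to these 4 sites after the first were between 1236561 and 2852995 bp away. The widest wild-type only peak, chr17:39981370-39983255, was 1886 bp with a score of 59.4 and lay in a wild-type IRF4 peak scored 432.

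Most wild-type only peaks were seen by no other library. Of 2857, 2746 or 96.1% (95.3 to 96.8) were in none of the other 11 lists, 78 were in 1 and 20 in 3 or more. Wild-type IRF4 met 26, wild-type NLRP3 20 and wild-type BATF 20, which are 0.910%, 0.700% and 0.700%. Knockout BATF, a list of 60926 peaks, met 55, or 1.93%. At 100 or more the shares were larger, with 8 of 51 in wild-type IRF4, or 15.7% (7.02 to 28.6), and 7 of 51 in wild-type NLRP3, or 13.7% (5.70 to 26.3). At scores of 50 to under 60 each of these lists met 4 of 1557.

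The filter used the controls of each genotype alone, so a knockout only peak can lie where wild-type cells had a removed STAT6 peak. Of the 155, 16 overlapped a deposited wild-type STAT6 peak that had been removed for meeting wild-type Ig or input, which is 10.3% (6.02 to 16.2). In all, 22 or 14.2% (9.11 to 20.7) overlapped a wild-type Ig or input peak. Among the 14 knockout only peaks at 100 or more, 6 met a removed wild-type STAT6 peak and 7 a wild-type Ig or input peak. For wild-type only peaks, set against the knockout lists, the numbers at all scores were 7 and 20 of 2857. At 100 or more they were 4 of 51, or 7.84% (2.18 to 18.9), and 6 of 51, or 11.8% (4.44 to 23.9).

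The top knockout only peaks show this directly. The highest, chr6:29697853-29698597, was 745 bp wide with a score of 197, and wild-type STAT6 had a removed peak of 81.4 there, beside wild-type Ig at 50.2. At chr14:74465704-74465821 the knockout score was 195, wild-type STAT6 scored 199 and wild-type Ig 79.3. At chr17:13743526-13745965, the widest knockout peak at 2440 bp, the knockout score was 184, wild-type STAT6 scored 114 and wild-type Ig 129. These 3 sites had a STAT6 peak in both genotypes and are knockout only by the filter.

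The other two of the top 5 had no wild-type STAT6 peak. The peak at chr13:74666904-74667631, 728 bp with a score of 186, lay 62 bp from the wild-type side of the shared site at chr13:74667694-74668033, and wild-type Ig had a peak of 65.2 there. It also met wild-type IRF4 at 189.6 and NLRP3 at 105, and knockout IRF4 at 153. The peak at chr1:159807383-159807481 was 99 bp with a score of 141 and met wild-type NLRP3 at 97.9 and no other list. It was the only one of the 5 outside wild-type Ig, and the nearest wild-type STAT6 peak was 231546 bp away.

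Knockout only peaks met the other antibodies more often than wild-type only peaks did. Wild-type NLRP3 met 37 of 155, or 23.9% (17.4 to 31.4), and wild-type IRF4 met 32, or 20.6% (14.6 to 27.9). The shares in the lists of their own genotype were 11.6% (7.03 to 17.7) for knockout IRF4, 11.0% (6.52 to 17.0) for knockout BATF and 5.81% (2.69 to 10.7) for knockout NLRP3. Of the wild-type only peaks, under 2% met each of these 5 lists. Wild-type BATF met 6.45% (3.14 to 11.5) of the knockout only peaks. Wild-type Ig met 12.9% (8.06 to 19.2), so the counts for wild-type NLRP3 were repeated without such regions. Those for the other lists were not. With the controls of both genotypes removed, wild-type NLRP3 met 19 of 133 knockout only peaks, or 14.3% (8.83 to 21.4), and 12 of 2837 wild-type only peaks, or 0.423% (0.219 to 0.738).

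**Figure D3:**
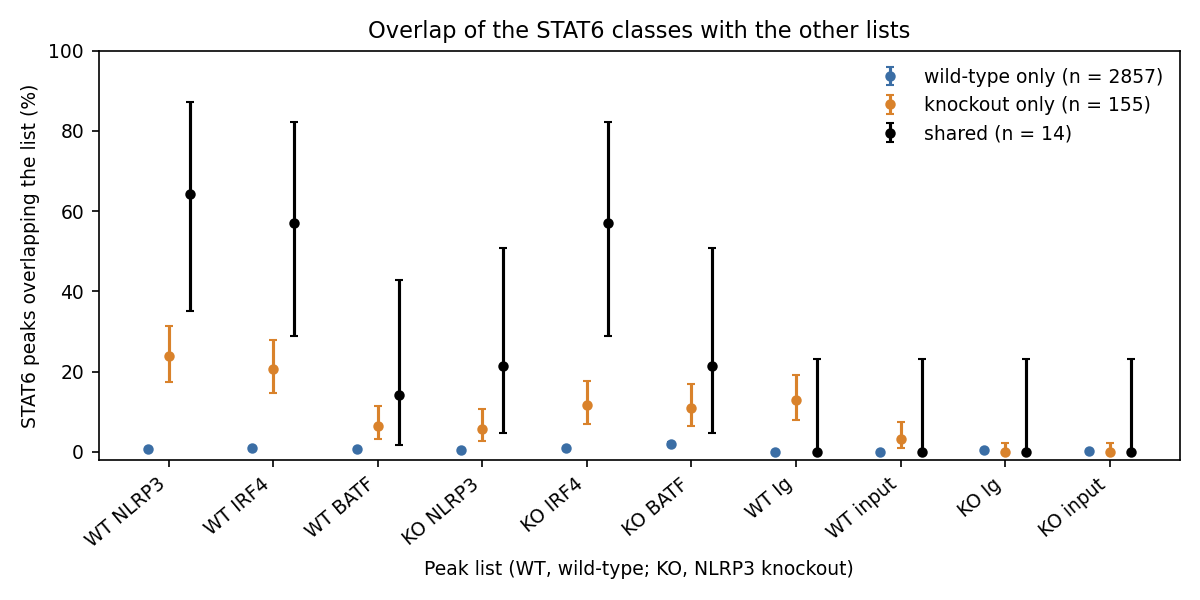
Percent of the peaks of each STAT6 class that overlap each of the 10 other lists by at least 1 bp, with exact 95% intervals, for wild-type only (blue), knockout only (orange) and shared peaks (black, counted on the wild-type peak). Shared peaks lie highest in wild-type NLRP3 and both IRF4 lists, knockout only peaks reach 23.9% in wild-type NLRP3, and wild-type only peaks stay under 2% in every list. Ig and input of the peak's own genotype are at 0 by the filter.

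Score again went with overlap. Of knockout only peaks at 100 or more, 10 of 14 met wild-type IRF4 and 9 of 14 wild-type NLRP3. At scores of 50 to under 60 these numbers were 5 and 7 of 52. Counting any of the 3 other antibodies, 46 of 155 knockout only STAT6 peaks met a wild-type list, or 29.7% (22.6 to 37.5), and 29 a knockout list, or 18.7% (12.9 to 25.8). The knockout only peaks of NLRP3 and IRF4 met a wild-type list of another antibody at 4.83% (3.09 to 7.16) and 5.97% (4.39 to 7.90). Their wild-type only peaks did so at 14.3% (10.9 to 18.2) and 9.14% (6.94 to 11.8). For BATF the shares were 0.141% of knockout only and 4.68% of wild-type only peaks, and for wild-type only STAT6 peaks 1.54%. The knockout NLRP3 and IRF4 lists are longer, with 483 and 775 control-free peaks against 169. At equal length with the 169 highest-scored wild-type STAT6 peaks, any of the 6 lists of other antibodies met 18.3% (12.8 to 25.0) of wild-type STAT6 peaks. The share of knockout STAT6 peaks was 37.9% (30.5 to 45.6). Each list was free only of the controls of its own genotype. Wild-type Ig met 20 and wild-type input 5 of the 169 knockout peaks. Knockout Ig met 7 and knockout input 2 of the 169 wild-type peaks. Of the 14 knockout only peaks at 100 or more, 7 met wild-type Ig or input. These shares were not recomputed without such regions.

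Most knockout only peaks lay over 100 kb from a control-free wild-type STAT6 peak. Of the 155 knockout only peaks, 6 or 3.87% had one within 1000 bp, 12 or 7.74% within 10 kb and 40 or 25.8% within 100 kb. The median gap was 284473 bp. For wild-type only peaks the shares were 0.175%, 0.490% and 1.72%. The lists searched differ in length, 2871 wild-type against 169 knockout peaks. The near pairs of the 6 knockout only peaks had gaps from 62 to 881 bp. An example is chr17:36368154-36368267 in knockout cells, scored 76.1, with a wild-type peak of 65.9 at a gap of 90 bp.

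Wild-type STAT6 peaks were spread almost evenly over the chromosomes. The mean was 1.11 peaks per Mb of the stretch that the peaks of all lists cover, and the chromosomes, Y apart, ran from 0.925 per Mb on chromosome 16 to 1.37 on chromosome 10. The ratio of densest to sparsest was 1.49. Chromosome X held 193 peaks, or 6.72%, where it makes up 6.35% of the span, and Y held 1. Of the 540 windows of 5 Mb, 532 held a wild-type STAT6 peak, and the longest stretch without one was 7.63 Mb.

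Knockout STAT6 peaks were fewer and less even. The mean was 0.0656 per Mb, from 0.0233 on chromosome 8 with 3 peaks to 0.141 on chromosome 17 with 13, a ratio of 6.04. Control-free IRF4, NLRP3 and wild-type BATF lists, with 392 to 775 peaks, had ratios from 1.63 to 2.66, and the knockout Ig list, with 333 peaks, had a ratio of 5.05. The 169 highest-scored wild-type STAT6 peaks gave 3.76, at the same number of peaks. Chromosome 3 held the most knockout peaks, 15, and X held 13. Peaks lay in 129 of the 540 windows, and the longest gap was 77.3 Mb. Across 20 chromosomes the wild-type and knockout densities had a Pearson r of 0.397 and a Spearman rho of 0.468, a description over chromosomes that share the libraries and their base composition.

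**Figure D4:**
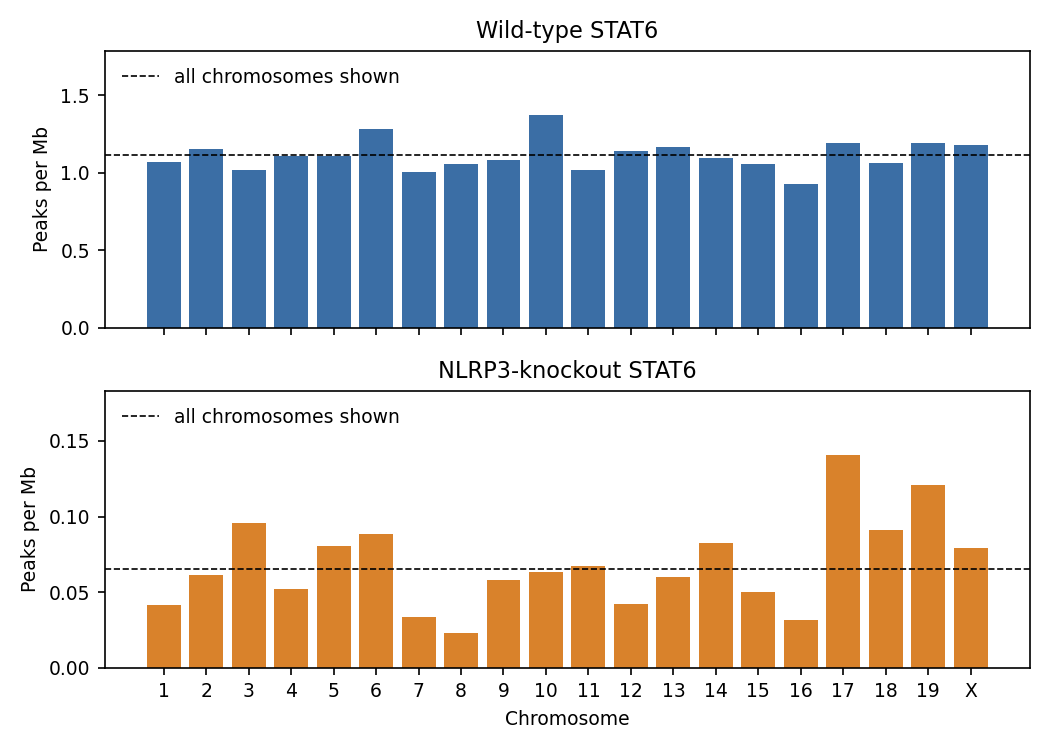
Control-free STAT6 peaks per Mb on chromosomes 1 to 19 and X, for wild-type (top) and knockout cells (bottom), each with its own axis from 0, and a dashed line at the value over these chromosomes. Wild-type bars lie between 0.925 and 1.37, and knockout bars between 0.0233 and 0.141 with chromosome 17 highest.

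A larger share of the knockout than of the wild-type list lay in the outermost 1 Mb of the chromosomes and in the first 10 Mb, a comparison chosen after the data were seen. The first 10 Mb of each chromosome's span, on the side of the centromere in mouse, held 28 of 169 knockout peaks, or 16.6% (11.3 to 23.0), and 8.22% (7.24 to 9.29) of wild-type peaks, where these stretches make up 7.77% of the span of chromosomes 1 to 19 and X. The first 1 Mb, 0.777% of that span, held 13 knockout peaks, or 7.69% (4.16 to 12.8), and 1.01% (0.677 to 1.45) of wild-type peaks. The last 1 Mb held 10 knockout peaks, or 5.92% (2.87 to 10.6), and 1.18% (0.821 to 1.65) of wild-type peaks. For the last 10 Mb the intervals overlapped, at 13.0% (8.34 to 19.04) of knockout and 9.06% (8.03 to 10.2) of wild-type peaks. Other lists also had larger shares in the first 10 Mb, with 13.5% (10.3 to 17.3) of wild-type NLRP3 and 12.3% (8.98 to 16.3) of knockout Ig, whose intervals overlap that of knockout STAT6. The first 1 Mb held 4.34% of wild-type NLRP3, 4.20% of knockout Ig, 3.03% of wild-type Ig and 5.15% of wild-type input, all on chromosomes 1 to 19, X and Y. Of the knockout only peaks over 200 bp wide, 9 of 23 were in the first 10 Mb, or 39.1% (19.7 to 61.5), and 12 of 23 met wild-type Ig or input. For the narrower knockout only peaks these numbers were 17 and 10 of 132. Wide wild-type only peaks also lay there more often. Of those over 200 bp, 10 of 46 were in the first 10 Mb, or 21.7% (10.9 to 36.4), against 7.97% of narrower ones. Knockout Ig or input met 3 of these 46.

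Wild-type STAT6 peaks had many neighbours at 2 to 10 kb and few nearer. The median gap from a wild-type STAT6 peak to the next nearest one was 243618 bp. A neighbour lay within 10 kb for 382 of 2871 peaks, or 13.3%, and within 100 kb for 942, or 32.8%. Below 2 kb 18 peaks had a neighbour, 156 had their nearest at 2 to 5 kb and 208 at 5 to 10 kb. These 382 peaks formed 162 pairs, 18 runs of 3 and 1 run of 4.

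In the full lists a smaller share of knockout than of wild-type STAT6 peaks had a neighbour within 10 kb, and most of those knockout neighbours were nearer. Knockout STAT6 had a median gap of 4660688 bp, with 12 of 169 peaks within 10 kb of another, or 7.10%, and 8 of these 12 within 2 kb. These few peaks depend on the processing, since 4 of 147 or 2.72% had a neighbour within 10 kb with the controls of both genotypes removed, and 6 of 163 or 3.68% with peaks within 1000 bp merged. In the wild-type NLRP3 and IRF4 lists 63.6% and 57.9% of the peaks with a neighbour within 10 kb had it within 2 kb, in knockout STAT6 66.7%, and in wild-type STAT6 4.71%. The long knockout BATF and input lists, at 0.316% and 0.431%, had even fewer of their near neighbours below 2 kb than wild-type STAT6. Wild-type BATF was at 18.5%, and wild-type Ig and input at 37.1% and 38.9%. The lists differ in length, and these shares were not adjusted for it. At equal length the order of the STAT6 shares within 10 kb was the other way. None of the 169 highest-scored wild-type peaks had such a neighbour, or 0% (0 to 2.16), a neighbour outside the shortened list not being counted. The share of the 169 knockout peaks was 7.10% (3.72 to 12.1).

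**Figure D5:**
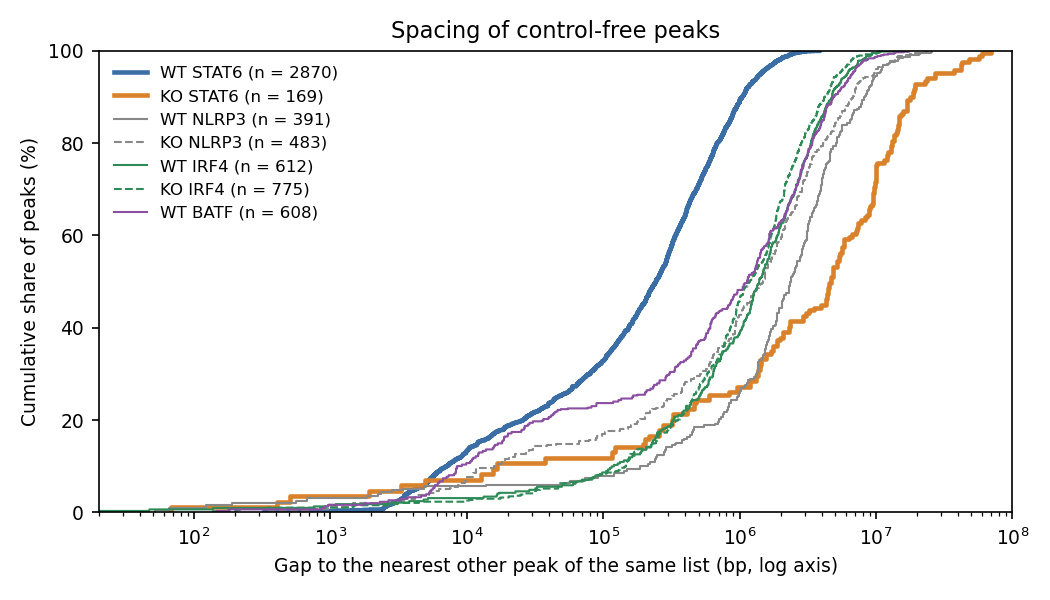
Cumulative percent of control-free peaks against the gap to the nearest other peak of the same list, in bp on a log axis, for both STAT6 lists (thick) and 5 other lists, leaving out knockout BATF and peaks alone on their chromosome. The wild-type STAT6 curve is flat below 2 kb and passes 13.3% at 10 kb, and the knockout STAT6 curve has its middle at 4660688 bp.

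Close neighbours were commoner among narrow wild-type peaks. A neighbour within 10 kb was found for 203 of 640 peaks under 80 bp wide, or 31.7%, and for 179 of 2231 wider ones, or 8.02%. The share also differed between score values: of the 177 peaks at exactly 65.61 or 61.78, 96 had such a neighbour, or 54.2%, against 286 of the other 2694, or 10.6%. They are the pair, among the 12 commonest scores, with the highest such share, and were singled out after the data were seen. High scores had such neighbours too, with 11 of 86 peaks at 95.74, or 12.8%, and 5 of 94 at 88.34, or 5.32%. The source of these differences was not tested.

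The longest run shows the form. It held 4 wild-type only peaks over 21.5 kb at chr5:24120055-24141571, 68 to 128 bp wide with scores from 58.65 to 65.61, and none was in another list. Of the 18 runs of 3, one at chr8:56200196-56207109 had all 3 of its peaks in another list. One more, at chr14:50550078-50560192, had 1 of its peaks in another list, and the other 16 runs had none. No run of 3 or more held a shared peak. Over the whole list, 96.1% of wild-type only peaks were in none of the other lists, and 0.488% of wild-type peaks were shared. The counts for the runs are therefore not read as a trait of runs. In the knockout list 2 pairs within 10 kb lay near the end of chromosome 2, at chr2:181652535-181653446 and chr2:181663722-181666183, with scores from 55.0 to 59.4 and from 69.1 to 86.1, and widths of 240 to 265 bp.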

How the data were processed

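Per the file headers, MACS was run in Galaxy to give 1 peak list for each of the 12 libraries. Reads were aligned with Bowtie2 per the submitters' processing notes, and no source used here gives the caller's version, cut-off or control. The deposited score is the authors' own value for a peak, not normalized between libraries. The lowest was 50.04, and scores were used for ranks, minimums, bands, ties and medians within a list, with the same band limits in both STAT6 lists. The notes name build mm8. Ends reach 152397321 on chromosome 7, beyond mm8 as known and inside mm9, which makes mm9 the likelier build of the positions. They are printed with ends as deposited and 1 added to each start, so that they count from 1. Genes and sequences at the peaks were not analysed here.

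Overlaps of at least 1 bp, gaps and ranks were computed with Python 3.11.15, numpy 2.4.6, pandas 2.3.3 and scipy 1.17.1, checked against bedtools 2.31.1 and on simulated lists, and drawn with matplotlib 3.10.9. Percentile ranks give ties their mean. Equal scores at a list's cut were settled by chromosome and position. No test between genotypes was made and no p-value computed. The members and comparisons were chosen with earlier results of these data known. Regions named are the 5 highest-scored peaks of each class unique to a genotype, the 5 shared sites with the best mean of the pair of percentiles, the widest peak of each class and the longest wild-type run within 10 kb. The shared sites beyond the best 5, the near pair, the further runs and the knockout pairs were chosen after their values were seen.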

Additional observations from a re-analysis of the deposited data

Results flagged for a closer look

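STAT6 peaks on unplaced or random sequence and outside chromosomes 1 to 19, X and Y were left out of every comparison. In wild-type cells there were 132 of them, against 95 for Ig and 7 for input, which is why they are given here. In knockout cells there were 103, against 80 for Ig and 451 for input.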

How the results depend on the processing

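Of 113 results recomputed under the alternatives, 78 stayed within the 95% interval or 1.5 times of the value reported and 35 moved. Requiring 50% overlap or allowing 1000 bp between peaks moved none of the results recomputed with them. Autosomes alone were tried for the wild-type chromosome ratio, which stayed at 1.49, its densest and sparsest chromosomes both being autosomes. With no control peaks removed, 108 knockout peaks were shared, 41.9% of knockout and 3.60% of wild-type peaks having a counterpart. With the controls of both genotypes removed, wild-type NLRP3 met 14.3% of knockout only and 0.423% of wild-type only peaks, and 2.72% of knockout peaks had a neighbour within 10 kb. Merging peaks within 1000 bp made that 3.68%.

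Minimum scores were applied to every list, the controls included, so that they also weaken the control filter, and a neighbour below the minimum, or outside a shortened list, no longer counts. At 100 there were 66 wild-type only and 24 knockout only peaks, counterparts for 18.5% of wild-type and 38.5% of knockout peaks, and a median wild-type only width of 82 bp. Wild-type NLRP3 then met 13.6% of wild-type only and 58.3% of knockout only peaks, the chromosome ratio was 10.3, and 0 of 81 wild-type and 0 of 39 knockout peaks had a near neighbour, which allows 3.70% and 7.69%. At 80 these were 328 and 45 peaks, 3.24% and 21.1%, and median widths of 74 bp (wild-type only) and 124 bp (knockout only). The NLRP3 shares were 4.27% and 48.9%, the ratio 2.43, and 0 of 339 wild-type peaks had a near neighbour, which allows 0.885%.

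With the wild-type list kept to the length of the knockout list, chosen after seeing the data, 164 wild-type only peaks and 5 shared ones remained, 2.96% of each list, with a median wild-type only width of 74 bp. Wild-type NLRP3 met 4.88% of these wild-type only peaks, 0 had a near neighbour, and the ratio was 3.76. The cause of these moves was not tested beyond the fewer peaks that the minimums and the shorter list leave. No paired analysis was possible because each group held 1 library. The read depth is unknown, and its part in the difference in list length was not tested.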
